A study of Mus musculus with 40 samples.

Results

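Genes that mark border-associated macrophages, 9 in all, were followed in CD11b+ cells of the mouse brain: the receptors Cd163, Stab1, Lyve1, Cd209f and Folr2, the secreted proteins Pf4, Ccl24 and F13a1, and the enzyme Cbr2. All 9 were taken by name from the 54513 rows of each of 3 expression tables. The samples were CD11b+ cells sorted from naive or tumor-bearing hemispheres of male mice aged 10 to 12 weeks, and 35 of the 40 labelled samples had a column, while the other 5 (3 naive nude mice, anti-PD-1 4 and combination 4) were not analysed here.

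The first table held GL261 gliomas, made from a mouse glioma line carrying tdTomato and luciferase in C57BL/6 mice, at 21 days post-implantation (DPI): naive mice, and tumor-bearing mice given vehicle, 7aaRGD or 7aaRAE, with 3 samples per group and 2 animals pooled in each sample. 7aaRGD is an integrin-blocking peptide, and in 7aaRAE the motif arginine-glycine-aspartic acid is replaced by arginine-alanine-glutamic acid. Both peptides were infused into the tumor by osmotic micropump in water, which was the vehicle. The second table held a 28 DPI experiment with vehicle (4 samples), 7aaRGD (4), an anti-PD-1 antibody (3) and both treatments together, called combination (3), with 1 animal per sample. Mice without anti-PD-1 received control IgG. The labels name nude mice for these samples. The paper instead describes this experiment in immunocompetent C57BL/6 mice with GL261 gliomas. It also says that immunodeficient mice did not allow a test of the joint treatment. The paper's account of the strain is followed here. The last table held gliomas of U87-MG RFP, a human line, in athymic nude mice (Nude-Foxn1nu), which lack most T cells, at 21 DPI with vehicle, 7aaRGD or 7aaRAE (3 samples each, with 2 animals pooled in a sample). Its columns carry no replicate number, so its samples are named only by the order of the columns. Each tumor model rested on 1 implanted cell line.

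Border-associated macrophages lie in the meninges, the choroid plexus and the perivascular spaces, outside the parenchyma that microglia occupy. They are known for scavenging and endocytic receptors, such as the haemoglobin receptor Cd163 and the hyaluronan receptor Lyve1. Few of their markers are theirs alone: Pf4 is also a platelet chemokine, Lyve1 also marks lymphatic endothelium, F13a1 is also made by monocytes, and Ccl24 is also an eosinophil chemokine of alternatively activated macrophages.

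The sorted cells carried myeloid transcripts in every group. Csf1r, the receptor that macrophages need to survive, averaged 3046 RPKM in naive samples and at least 779 RPKM in each tumor-bearing group, where RPKM is reads scaled to exon length and to library size. The number of genes at 1 RPKM or more was 9327 to 9570, 9553 to 9820 and 9550 to 9692 per sample in the 3 tables, and the read depth is unknown. In bulk RNA, fewer cells of a type and less RNA per cell cannot be told apart.

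The promoter windows of Pf4, Folr2 and Cbr2 are shown for their close relation in the GL261 samples (given near the end). It was the closest among the markers averaging 1 RPKM or more there. For Folr2, the window shown was picked because it holds the motif AGGAAGT. Each window runs from 250 bases before to 50 after the start of the transcript in RefSeq (GRCm38.p6), and 7 of the 9 genes had at least 1 window. Capitals mark AGGAAGT, the motif of the myeloid factor PU.1, on either strand. In Cbr2 they mark TGCTGAC, a recognition site of MAF factors, also on either strand. The windows lie at chr5:90772185-90772484 (Pf4, plus strand), chr7:101857141-101857440 (Folr2, minus strand) and chr11:120731972-120732271 (Cbr2, minus strand).
Pf4: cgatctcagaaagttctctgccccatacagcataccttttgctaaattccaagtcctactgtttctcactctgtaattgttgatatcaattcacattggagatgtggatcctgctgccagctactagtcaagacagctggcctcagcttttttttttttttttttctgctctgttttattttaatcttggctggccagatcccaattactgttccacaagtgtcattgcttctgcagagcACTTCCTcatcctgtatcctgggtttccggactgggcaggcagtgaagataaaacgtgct
Folr2: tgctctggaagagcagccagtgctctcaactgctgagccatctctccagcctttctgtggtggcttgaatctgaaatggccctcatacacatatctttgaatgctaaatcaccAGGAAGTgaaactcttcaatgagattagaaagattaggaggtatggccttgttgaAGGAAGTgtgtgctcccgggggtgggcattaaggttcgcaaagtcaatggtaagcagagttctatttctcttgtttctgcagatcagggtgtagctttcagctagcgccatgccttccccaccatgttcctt
Cbr2: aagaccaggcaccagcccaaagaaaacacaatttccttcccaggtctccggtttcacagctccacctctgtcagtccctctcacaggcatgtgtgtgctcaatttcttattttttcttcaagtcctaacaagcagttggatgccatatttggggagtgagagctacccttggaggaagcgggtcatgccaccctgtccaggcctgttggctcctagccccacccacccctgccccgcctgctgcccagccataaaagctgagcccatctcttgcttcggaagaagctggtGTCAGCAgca

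AGGAAGT was in 9.35% of all 32851 promoter windows and in 3 of the 9 windows of the marker genes, 1 each of Pf4, Folr2 and F13a1. Folr2 and F13a1 have a window each without it. The site TGCTGAC was in 4.67% of all windows and in Cbr2 alone among the marker genes. CACGTG, the E-box, was in 7.15% of all windows and in none of the 9, and GGAAGT, the shorter PU.1 core that AGGAAGT contains, was in 23.8% of all windows and in the same 3 of the 9.

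In naive brain, Stab1 dominated the markers and Cd163, Lyve1 and Cd209f were low. Stab1, a scavenger receptor, averaged 122 RPKM ± 9.38 (SD, n = 3), which was 70.3% of the summed level of the 9 genes. A list of 12 microglial genes summed to 18554 to 19281 RPKM in the same samples. Which of the sorted cells made Stab1 was not tested. Pf4 followed with 15.7 ± 3.35 RPKM, then Cbr2 with 9.36 ± 1.99 and F13a1 with 7.52 ± 1.47. Ccl24, Folr2, Lyve1 and Cd163 lay together between 4.88 and 4.20 RPKM, with overlapping samples. Cd209f, a C-type lectin of the DC-SIGN group, was lowest with 1.45 RPKM.

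In tumor-bearing hemispheres given vehicle, the order was different. Ccl24 led with a mean of 223 RPKM, carried by 2 of its 3 samples, followed by F13a1 with 33.9 ± 9.99 and Stab1 with 24.6 ± 7.62. Cd163, Lyve1 and Cd209f were under 1 RPKM in each of the 9 tumor-bearing samples of this table. The plot of the 9 genes by sample shows these levels for all groups.

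**Figure D1:**
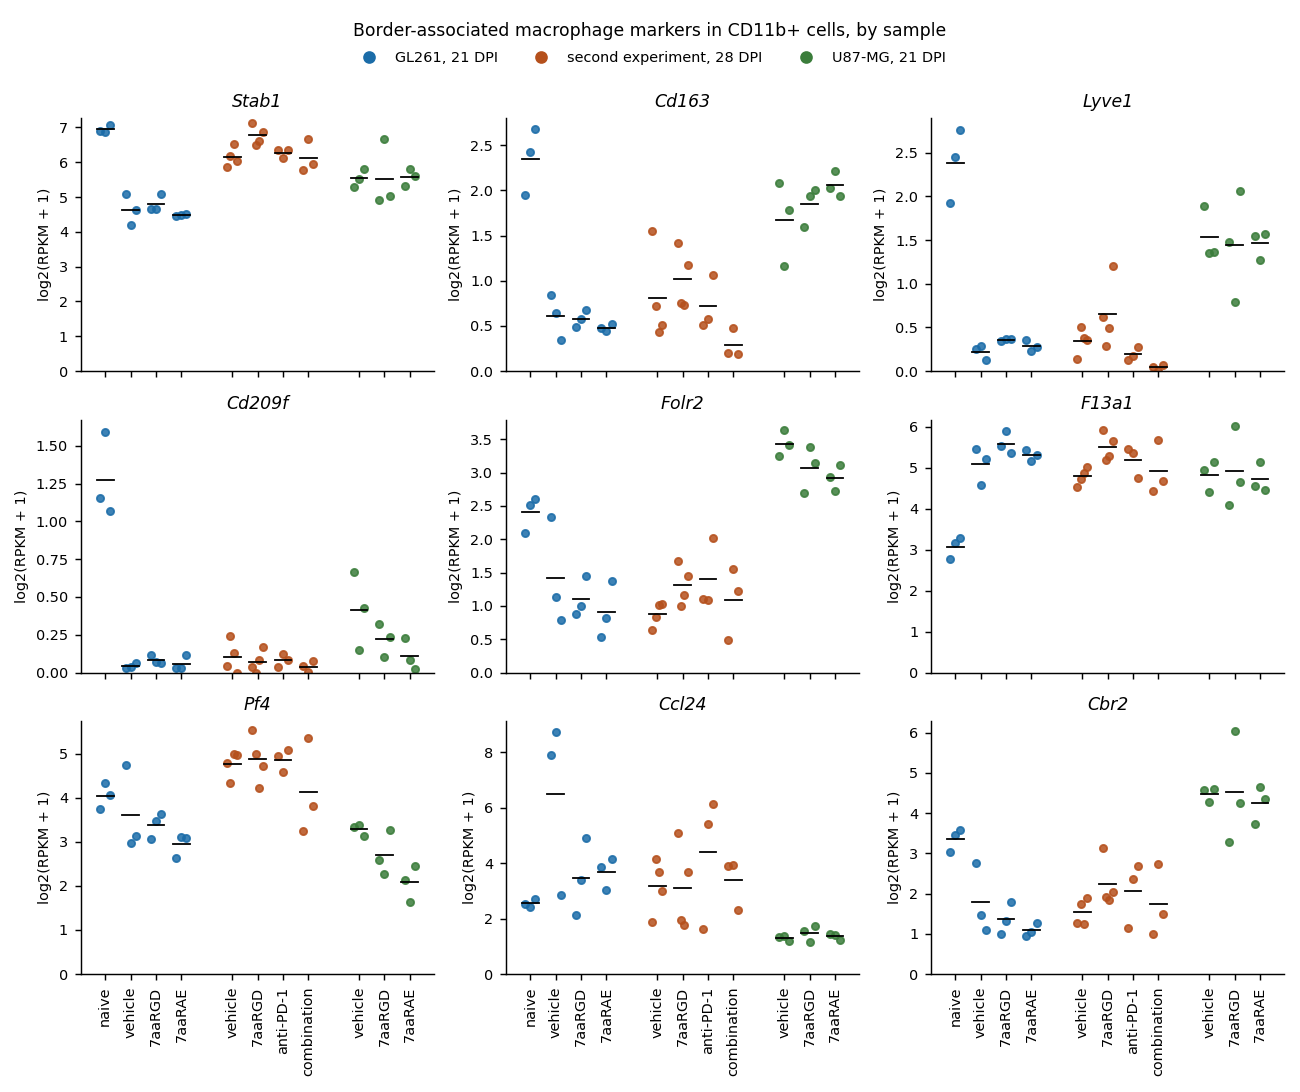
Level of each marker gene as log2(RPKM + 1) in each sample (points) with the group mean (black lines); colours stand for the 3 tables, which were normalised separately, and the vertical scale differs between genes. Cd163, Lyve1 and Cd209f are higher in the naive group than in the GL261 tumor-bearing groups, where they are near 0, while F13a1 is higher there than in naive samples.

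The comparison of vehicle with naive hemispheres asks how these genes differed between brains with a GL261 glioma and naive brains. The vehicle mice also had the implantation surgery and water infused into the tumor by pump. No surgery or pump is described for the naive mice, so the glioma and these procedures cannot be told apart. Cd163, Lyve1, Stab1, Cbr2 and Folr2 were lower with the tumor, F13a1 and Ccl24 were higher, and Pf4 did not pass the test. Differences were tested with limma on log2(RPKM + 1) over protein-coding genes averaging 1 RPKM or more over the naive and vehicle samples together. Of the 9 genes, 8 passed this filter. Cd163 (mean 0.545 RPKM with vehicle) and Lyve1 (0.166) passed it only through the naive group, where they are high. Their calls as lower therefore depend in part on the filter. Of the 8 tested, 7 were called at a Benjamini-Hochberg adjusted p under 0.05, 2 higher and 5 lower. The 5 lower include Cd163 and Lyve1. Among all 9728 genes tested, 82.9% were called (34.6% higher and 48.2% lower), so the share of markers called is near that of all genes. In 6 of the 8 the groups did not overlap, against 85.4% of all genes. The median difference of the 8 was -1.28, and that of all genes was -0.14, or 0.0099 after rescaling by median-of-ratios factors.

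Among the receptors, Cd163 (chr6:124304656-124330527, GENCODE M21 on mm10 as for the other genes), which takes up haemoglobin bound to haptoglobin, was at 2.85, 4.36 and 5.39 RPKM in the naive samples. With the tumor it was at 0.796, 0.565 and 0.274 RPKM. All 3 tumor samples lay below all naive samples, and the difference on the log2(RPKM + 1) scale was -1.73 (SE 0.19, adjusted p = 5.39e-05, limma). This scale understates the change of low genes: the ratio of the mean RPKM was 7.71-fold.

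Lyve1 (chr7:110850607-110863239) was at 2.79, 4.48 and 5.77 RPKM in naive samples. In the vehicle samples it was at 0.191, 0.218 and 0.0891 RPKM. The groups were far apart, with a difference of -2.16 (SE 0.19, adjusted p = 1.17e-05, limma) and a 26.2-fold ratio of the means. Cd209f (chr8:4102787-4105835) was at 1.23, 2.02 and 1.09 RPKM in naive samples. It was at 0.0233, 0.0252 and 0.0461 RPKM with vehicle, so the groups did not overlap. Cd209f was under the filter of 1 RPKM, and in the fit with no filter its difference was -1.23 (adjusted p = 0.000646, limma).

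Stab1 (chr14:31139013-31168641) was at 118, 116 and 133 RPKM in naive samples. With vehicle it was at 32.6, 17.5 and 23.7 RPKM. It had the largest fall among the 8 tested on the log2 scale, -2.31 (SE 0.19, adjusted p = 8.32e-06, limma). Folr2 (chr7:101839988-101857194), a folate receptor, was at 3.29, 4.69 and 5.11 RPKM in naive samples. It was at 4.05, 1.20 and 0.720 RPKM with vehicle. Vehicle 1 lay inside the naive range, and the difference of -0.99 (adjusted p = 0.0321, limma) lost its call without naive 2, naive 3, vehicle 2 or vehicle 3, where the difference was -0.94, -0.89, -0.85 and -0.67 and the adjusted p was 0.087, 0.104, 0.0896 and 0.0879. It also lost it with median-of-ratios factors (-0.87, adjusted p = 0.0551), with the replicate number as a block (adjusted p = 0.0548) and with no filter (adjusted p = 0.0969).

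Among the secreted proteins, F13a1 (chr13:36867178-37050244), the catalytic subunit of coagulation factor XIII, was at 5.88, 7.97 and 8.71 RPKM in naive samples. It was at 42.6, 23.0 and 36.2 RPKM with vehicle. Every tumor sample was above every naive sample, with a difference of 2.01 (SE 0.22, adjusted p = 4.71e-05, limma).

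Ccl24 (chr5:135569937-135573049) was at 4.80, 4.30 and 5.54 RPKM in naive samples. It was at 236, 427 and 6.28 RPKM with vehicle. Vehicle 1 and vehicle 2 were far above all naive samples and vehicle 3 was just above them. The difference was 3.95 (adjusted p = 0.0228, limma), and it lost its call without any 1 of the 3 naive samples, vehicle 1 or vehicle 2, with adjusted p between 0.0595 and 0.0671 and differences between 2.83 and 4.03. With no filter the adjusted p was 0.0776. Without vehicle 3 the difference was 5.76.

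Pf4 (chr5:90772435-90773383), platelet factor 4, was at 12.3, 19.0 and 15.7 RPKM in naive samples. It was at 25.9, 6.80 and 7.79 RPKM with vehicle. Vehicle 1 was the highest of the 6 and the other two were the lowest, so the groups overlapped, and the difference was -0.42 (adjusted p = 0.381, limma). Without vehicle 1 it was -0.99 and called (adjusted p = 0.000561). Cbr2 (chr11:120729489-120732114), a carbonyl reductase, was at 7.13, 9.99 and 10.96 RPKM in naive samples. It was at 5.78, 1.78 and 1.15 RPKM with vehicle. All tumor samples were lower, with a difference of -1.57 (SE 0.38, adjusted p = 0.00523, limma). Vehicle 1 was the highest vehicle sample in Cd163, Stab1, Folr2, Pf4, F13a1 and Cbr2.

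**Figure D2:**
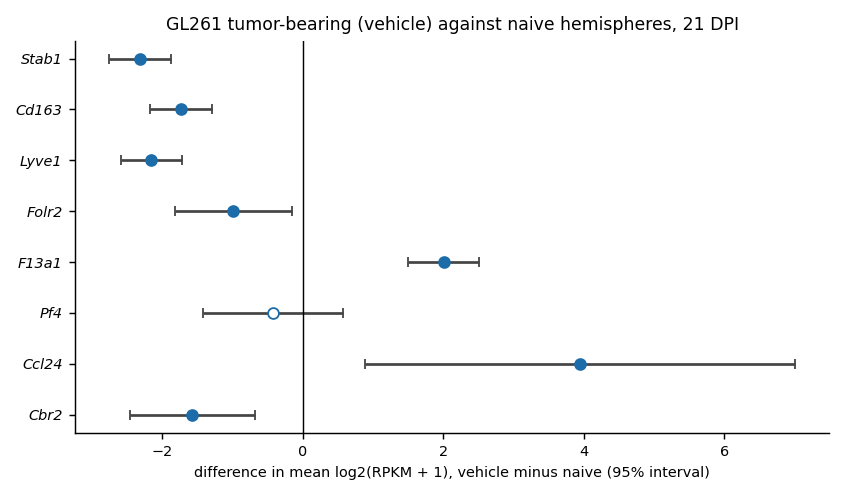
Difference in mean log2(RPKM + 1) between vehicle and naive samples (3 against 3) for the 8 marker genes tested, with 95% intervals; filled points were called at adjusted p under 0.05. F13a1 (2.01) and Ccl24 (3.95) lie above 0, Pf4 (-0.42, open) has an interval across 0 and the other 5 lie below 0.

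Markers of other cells moved in the same comparison. The summed level of 12 microglial genes was 18554 to 19281 RPKM in naive samples and 1523 to 2219 with vehicle, and all 12 were called lower (median -3.42). The sum of 8 monocyte genes went from 25.0 to 29.1 RPKM in naive samples to 1616 to 2436 with vehicle, and all 8 were called higher (median 5.49). Their part in the levels of the 9 markers was not tested. Of 26 other genes used for border-associated macrophages, 21 were tested. Of these, 12 were called higher (34.6% of all genes were) and 7 lower (48.2% were), with a median of 1.19. The 5 largest of these were Tgfbi, an adhesion protein of the matrix (5.63), the lectin Clec4n (4.89), Hpgd, which degrades prostaglandins (-3.98), Ms4a7 (3.79) and the sialic acid receptor Siglec1 (3.75), each with an adjusted p under that of every one of the 9 markers (limma). Mrc1, the mannose receptor, averaged 29.4 RPKM in naive samples and 59.3 with vehicle (0.59, adjusted p = 0.422).

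The cells that share single markers were looked for by their own genes. Of 9 platelet genes, 1 (Gp9) averaged 1 RPKM or more in naive samples, at 43.9 RPKM, against 1.78 with vehicle. The platelet genes Ppbp and Itga2b did not pass 0.65 and 0.718 RPKM in any sample of the 3 tables. Pf4 was at 2.12 RPKM or more in all of them, and the part of platelets in its level was not tested. Of 5 lymphatic endothelial genes, 2 were tested, with 1 called higher and 1 lower. Ccl21a was at 0 in every sample of the GL261 table. Prox1 averaged 3.41 RPKM in naive samples and 0.29 with vehicle, where Pdpn was the highest of the 5 with 3.85 RPKM. The 6 fibroblast genes summed to at most 0.158 RPKM in naive samples and 1.36 with vehicle, and the 6 T and NK cell genes to at most 1.09 and 4.90. The 8 neutrophil genes summed to 283 to 427 RPKM in naive samples and 58.8 to 189 with vehicle, 6 of 8 called lower. The 8 dendritic cell genes summed to 440 to 467 and 123 to 145 RPKM, with 3 of 5 tested called higher and 1 lower. Most of the naive sum came from Fscn1, at 423 to 452 RPKM in naive samples and 55.2 to 69.6 with vehicle. Without Fscn1 the dendritic cell genes summed to 14.2 to 16.8 RPKM in naive samples and 67.9 to 75.4 with vehicle. The 8 blood endothelial genes summed to 2.98 to 3.36 and 14.8 to 25.7 RPKM, with both genes tested called higher. Of the oligodendrocyte genes 1 of 3 tested was called higher and 1 lower, and both red blood cell genes tested were called lower.

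In the GL261 peptide groups at 21 DPI, the question was whether 7aaRGD or its changed motif moved the markers relative to vehicle. None of the 6 markers over the filter was called for 7aaRGD against vehicle (0.148% of 9441 genes were), for 7aaRAE against vehicle (0% of genes) or for 7aaRGD against 7aaRAE (0% of genes, limma). At an unadjusted p under 0.05 the markers numbered 2, 0 and 0, against 13.6%, 6.37% and 5.52% of all genes. The differences of the 6 markers ran from -3.03 to 0.50 for 7aaRGD, from -2.82 to 0.22 for 7aaRAE and from -0.21 to 0.44 between the peptides. Both comparisons with vehicle share the same 3 samples.

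Ccl24 was at 3.34, 9.37 and 29.0 RPKM with 7aaRGD. It was at 13.4, 7.25 and 16.5 RPKM with 7aaRAE. All 6 peptide samples were far below vehicle 1 and vehicle 2, but vehicle 3, at 6.28 RPKM, lay among them. The difference from vehicle was -3.03 (unadjusted p = 0.0461, adjusted p = 0.358, limma) with 7aaRGD and -2.82 (adjusted p = 0.718) with 7aaRAE. Without vehicle 3 the difference with 7aaRGD was -4.85 and was called (adjusted p = 0.022). The 2 peptides differed from each other by -0.21 in Ccl24, with a 95% interval from -3.17 to 2.76 (adjusted p = 0.992, limma).

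F13a1 was at 44.9, 58.2 and 39.7 RPKM with 7aaRGD. It was at 42.0, 35.0 and 38.4 RPKM with 7aaRAE. The lowest 7aaRGD sample was below the highest vehicle sample, and the difference from vehicle was 0.50 (unadjusted p = 0.0376, adjusted p = 0.342, limma). Stab1 was at 24.3, 24.0 and 33.1 RPKM with 7aaRGD. It was at 20.9, 21.4 and 22.0 RPKM with 7aaRAE. All 3 7aaRGD samples lay above all 3 7aaRAE samples, the only 1 of the 6 markers with no overlap, against 11.4% of all genes. The difference of 0.31 had an interval from -0.13 to 0.75 (adjusted p = 0.992, limma).

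Over the 6 peptide samples Pf4 ran from 5.24 to 11.4 RPKM, Folr2 from 0.451 to 1.73 and Cbr2 from 0.932 to 2.46. Cd163 did not pass 0.603 RPKM, Lyve1 0.290 and Cd209f 0.0847, and these 3 were under the filter. Lyve1 was at 0.273 to 0.290 RPKM with 7aaRGD and at 0.0891 to 0.218 with vehicle, all near 0. The fit with no filter gave an unadjusted p of 0.0164 and an adjusted p of 0.193 (limma). The share of all genes whose groups do not overlap in this comparison is not given here, so no weight is put on this separation.

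At 28 DPI, the comparison of 7aaRGD with vehicle asked the same at a later time. F13a1 and Stab1 had higher means with 7aaRGD than with vehicle, but no marker was called. Of the 6 markers tested, 5 were above 0, with differences from -0.058 to 0.73 and a median of 0.53 against 0.015 for all genes. None was called, against 0.647% of 9737 genes, and 2 had an unadjusted p under 0.05, against 14.6% (limma).

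F13a1 was at 22.2, 25.2, 28.5 and 31.5 RPKM in the 4 vehicle samples. It was at 59.9, 35.3, 37.8 and 49.7 RPKM with 7aaRGD. All 7aaRGD samples lay above all vehicle samples, as in 8% of all genes for no overlap in either direction. The difference was 0.73 (95% interval 0.18 to 1.27, adjusted p = 0.207, limma).

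Stab1 was at 57.4, 70.7, 90.6 and 65.1 RPKM with vehicle. It was at 138, 89.3, 97.4 and 115 RPKM with 7aaRGD. Only 7aaRGD 2 and vehicle 3 crossed, and the difference was 0.62 (unadjusted p = 0.00573, adjusted p = 0.154, limma). Cbr2 was at 1.39, 2.33, 1.37 and 2.74 RPKM with vehicle. It was at 7.85, 2.78, 2.61 and 3.11 RPKM with 7aaRGD. 7aaRGD 1 stood apart from the other three, and the difference of 0.70 (adjusted p = 0.438, limma) was 0.40 without it. 7aaRGD 1 was also the highest 7aaRGD sample in Cd163, Pf4, F13a1, Stab1, Folr2 and Ccl24.

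The monocyte genes summed to 220 to 484 RPKM in the vehicle samples and to 1000, 237, 324 and 681 RPKM in 7aaRGD 1 to 4, and none of the 8 was called. Of the 1000 RPKM in 7aaRGD 1, 745 came from Chil3, a chitinase-like protein. The microglial genes summed to 1775 to 2479 RPKM with vehicle and 2032 to 3597 with 7aaRGD (median difference 0.44), and 1 of the 12, the fractalkine receptor Cx3cr1, was called higher (0.46, adjusted p = 0.0342, limma). Their part in the marker levels was not tested.

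The anti-PD-1 antibody, which blocks a checkpoint receptor on T cells, moved many genes but none of these markers past the threshold. Of all 9737 genes 23.1% were called and of the 6 markers none, with 0 markers and 36.2% of all genes at an unadjusted p under 0.05 (limma). All 6 were above 0 (0.10 to 1.21, median 0.46), against 49% of all genes. Folr2 was at 0.553, 0.791, 1.02 and 1.04 RPKM with vehicle. It was at 1.14, 1.12 and 3.06 RPKM with anti-PD-1. It was the 1 marker whose groups did not overlap, against 32.4% of all genes, with a difference of 0.52 (adjusted p = 0.17, limma).

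Ccl24 ranged from 2.08 to 68.6 RPKM over the 14 samples at 28 DPI. It was at 2.66, 16.8, 11.9 and 6.93 RPKM with vehicle. It was at 2.08, 41.3 and 68.6 RPKM with anti-PD-1. Anti-PD-1 1 was the lowest of all 14 samples and the other two were the highest, and the difference of 1.21 was not called (adjusted p = 0.415, limma). Without anti-PD-1 1 it was 2.59 and without anti-PD-1 3 it was 0.34, neither called. The monocyte genes summed to 541 RPKM in anti-PD-1 1, 1115 in anti-PD-1 2 and 738 in anti-PD-1 3, all above the 484 RPKM of the highest vehicle sample. Of these genes 5 of 8 were called higher (median 1.14), as were all 3 dendritic cell genes tested (median 1.08) and 3 of 12 microglial genes (median 0.32). Their part in the marker levels was not tested. Among the 21 other genes used for border-associated macrophages that were tested, 1 was called higher and 1 lower, against 23.1% of all genes. These were the inhibitory lectin Clec12a (1.25, adjusted p = 0.000579) and the ectoenzyme Cd38 (-0.52, adjusted p = 0.0239, limma).

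In the combination group, 43.3% of all genes were called against vehicle and none of the 6 markers, and 0 markers against 51% of all genes had an unadjusted p under 0.05 (limma). Against anti-PD-1 alone, 0.0411% of genes and no marker were called, and 0 markers against 15% of all genes had an unadjusted p under 0.05. All 6 markers were below 0 in that comparison (median -0.32), as were 61.1% of all genes, while against vehicle they ran from -0.63 to 0.21. These comparisons and those above share the vehicle or the anti-PD-1 samples.

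Pf4 was at 26.4, 19.3, 30.9 and 30.3 RPKM with vehicle. It was at 29.6, 22.9 and 32.9 RPKM with anti-PD-1. In the combination samples it was at 8.48, 39.8 and 13.2 RPKM. Combination 1 and combination 3 were the lowest of all 14 samples, while combination 2 was second only to 7aaRGD 1, at 45.6 RPKM. The difference from vehicle was -0.63 (adjusted p = 0.221, limma) and that from anti-PD-1 was -0.73 (adjusted p = 0.453, limma). Without combination 2 the difference from vehicle was -1.24 and called (adjusted p = 0.00733). Combination 2 was also the highest of its group in Cd163 (0.388 RPKM), F13a1 (49.9), Stab1 (99.6), Folr2 (1.94), Ccl24 (14.2) and Cbr2 (5.67). Its microglial genes summed to 2692 RPKM and its monocyte genes to 550, against 2826 to 2889 and 473 to 811 in the other two. Against vehicle, 5 of 8 monocyte genes (median 1.19), 7 of 12 microglial genes (median 0.67) and all 3 dendritic cell genes tested (median 1.94) were called higher, and their part in the marker levels was not tested.

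Against vehicle, 43.3% of all genes were called in the combination group. Of the 21 other border-associated macrophage genes tested there, 4 were called higher and 5 lower (limma). The 5 largest were Clec12a (1.60, adjusted p = 2.44e-05), the lectins Mgl2 (1.41, adjusted p = 0.0132) and Clec10a (0.99, adjusted p = 0.00246), Mrc1 (-1.29, adjusted p = 0.019) and the scavenger receptor Colec12 (-0.87, adjusted p = 0.0184).

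The low markers Cd163, Lyve1 and Cd209f had their lowest means of the 28 DPI groups in the combination group. Cd163 was at 0.147, 0.388 and 0.145 RPKM there, against 0.35 to 1.93 RPKM with vehicle. Lyve1 was at 0.037, 0 and 0.0529 RPKM, against 0.105 to 0.417 with vehicle. Both genes were under the filter of 1 RPKM, and Lyve1 was near 0 in the combination samples. The fit with no filter gave an adjusted p of 0.193 for Lyve1 and 0.161 for Cd163 (limma).

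An interaction term asked whether the combination differed from the sum of the 2 single treatments. All 6 markers lay below 0 (-1.03 to -0.75, median -0.89), as did 64.1% of all genes (median -0.055). None was called, as with all genes (0%), and 2 had an unadjusted p under 0.05, against 8.15%. These were F13a1 (-0.99, unadjusted p = 0.0223, adjusted p = 0.588, limma) and Stab1 (-0.78, unadjusted p = 0.0188, adjusted p = 0.588, limma).

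**Figure D3:**
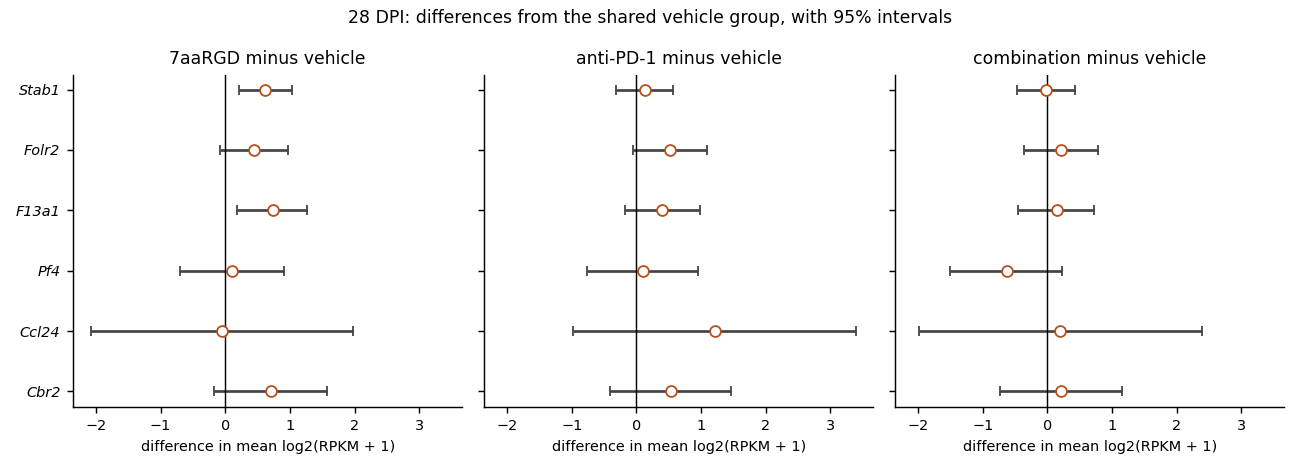
Differences from the shared vehicle group at 28 DPI in mean log2(RPKM + 1) for the 6 marker genes tested, with 95% intervals, for 7aaRGD (4 against 4 samples), anti-PD-1 (3 against 4) and combination (3 against 4); open points were not called. The intervals of Stab1 and F13a1 with 7aaRGD lie above 0 before adjustment, and those of Ccl24 are the widest.

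In U87-MG gliomas of nude mice, Cd163 and Lyve1 were detected at over 1 RPKM in most samples. Cd163 ran from 1.24 to 3.64 RPKM over the 9 samples and Lyve1 from 0.735 to 3.18, while Cd209f did not pass 0.585. With vehicle, Stab1 was highest with 46.0 ± 8.84 RPKM (SD, n = 3), then F13a1 with 28.0 ± 7.09, whose samples did not overlap those of Stab1. Cbr2 followed with 21.4 ± 2.59, overlapping F13a1, then Folr2 with 9.88 ± 1.46 and Pf4 with 8.75 ± 0.873, which overlapped each other. Ccl24 was low, from 1.23 to 2.31 RPKM in all 9 samples. Side by side with the vehicle means of the GL261 table, which was normalised separately and holds another tumor line and strain, Cbr2 was at 21.4 against 2.91 RPKM, Folr2 at 9.88 against 1.99, Lyve1 at 1.94 against 0.166 and Ccl24 at 1.48 against 223, and no test was made across tables. The microglial genes summed to 9929 to 12651 RPKM in the U87-MG vehicle samples.

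Against vehicle, 0% of 9665 genes were called with 7aaRGD and 0.0103% with 7aaRAE, and between the peptides 0% (limma), with none of the 8 markers tested in any of the 3 comparisons. At an unadjusted p under 0.05 there were 0, 2 and 1 markers, against 3.77%, 7.72% and 3.38% of all genes. The differences of the 8 markers ran from -0.58 to 0.18, from -1.20 to 0.39 and from -0.21 to 0.63. Pf4 was at 9.13, 9.37 and 7.75 RPKM with vehicle. It was at 5.04, 3.82 and 8.56 RPKM with 7aaRGD and at 3.41, 2.12 and 4.50 RPKM with 7aaRAE. The 7aaRAE samples lay below all vehicle samples, and the 7aaRGD samples lay between and crossed both. The difference from vehicle was -1.20 with 7aaRAE (unadjusted p = 0.00128, adjusted p = 0.274, limma) and -0.58 with 7aaRGD (adjusted p = 0.941), and between 7aaRGD and 7aaRAE it was 0.63 (95% interval 0.034 to 1.22, adjusted p = 1, limma).

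Folr2 was at 8.54, 11.4 and 9.67 RPKM with vehicle. It was at 5.50, 9.43 and 7.86 RPKM with 7aaRGD and at 6.65, 5.58 and 7.66 RPKM with 7aaRAE. The 7aaRAE samples lay below all vehicle samples (-0.51, adjusted p = 0.536, limma), so 2 of the 8 markers did not overlap there, against 16.5% of all genes. Cbr2 was at 22.7, 18.4 and 23.1 RPKM with vehicle. It was at 8.80, 64.5 and 18.1 RPKM with 7aaRGD. The second 7aaRGD sample was the highest of all 9 and the first the lowest, and the difference was 0.05 (adjusted p = 0.993, limma).

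That second 7aaRGD sample was also the highest of the 9 in Stab1 (100 RPKM, others 28.9 to 55.3) and F13a1 (63.4, others 16.0 to 34.2), and the lowest in Lyve1 (0.735 RPKM). Its microglial genes summed to 7501 RPKM, the lowest of the 9. Its monocyte genes summed to 534 RPKM, of which 488 came from Fn1, the matrix protein fibronectin, and without Fn1 to 45.8 RPKM, against 53.8 to 58.3 in the vehicle samples. The part of microglia and monocytes in the marker levels of this second 7aaRGD sample was not tested.

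Across the tumor-bearing samples, the markers did not rise and fall as 1 group. In the GL261 samples (n = 9) Pearson's r of log2(RPKM + 1) was 0.96 between Folr2 and Cbr2, 0.94 between Pf4 and Cbr2 and 0.91 between Pf4 and Folr2, the genes whose promoters are printed above. GL261 vehicle 1 was the highest of these samples in Pf4, Folr2 and Cbr2 alike, and r without it was not computed. At 28 DPI (n = 14) the same pairs had r of 0.80, 0.61 and 0.58, and in U87-MG (n = 9) 0.49, -0.12 and 0.66. Stab1 went with F13a1 (0.50, 0.84 and 0.87 in the 3 tables) and with Cbr2 (0.68, 0.63 and 0.90). Lyve1 in U87-MG, where it passed 1 RPKM, had r of -0.83 with Stab1 and 0.51 with Pf4. Samples of a table share 1 normalisation, and treatment groups are mixed in these values. On residuals from the group means, Folr2 with Cbr2, Pf4 with Cbr2 and Pf4 with Folr2 had r of 0.95, 0.93 and 0.90 in GL261. At 28 DPI these were 0.76, 0.67 and 0.68, and in U87-MG 0.60, -0.44 and 0.21.

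**Figure D4:**
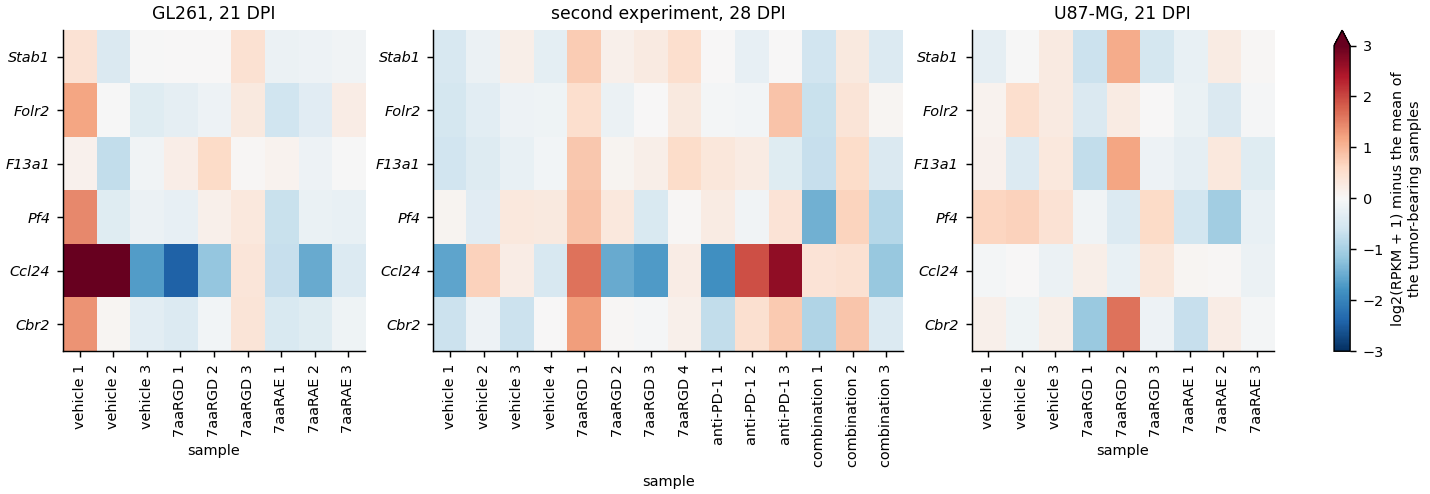
Log2(RPKM + 1) of the 6 marker genes averaging 1 RPKM or more in all 3 tables, minus the gene's mean over the tumor-bearing samples of its table, by sample (red higher, blue lower; U87-MG samples are numbered in column order only). GL261 vehicle 1, 28 DPI 7aaRGD 1 and the second U87-MG 7aaRGD sample are red in several genes at once, and Ccl24 in GL261 vehicle 1 and vehicle 2 exceeds the colour scale.

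Other genes were ranked by how closely they went with the mean of the 6 markers over 1 RPKM (Pf4, F13a1, Stab1, Folr2, Ccl24 and Cbr2), by the lowest r over the 3 tables among 8905 genes. The nearest was Dab2, an endocytic adaptor, with r of 0.88, 0.70 and 0.76 in the GL261, 28 DPI and U87-MG samples. Dhrs3, a retinal reductase, followed with 0.88, 0.66 and 0.79, then Siglec1 with 0.80, 0.64 and 0.65 and Renbp, the renin-binding protein, with 0.82, 0.59 and 0.86. The other 6 of the nearest 10 were Pgpep1, Clec4a3, Vps33a, Cltc (the clathrin heavy chain), Gnpda1 and Nrp1, with lowest r between 0.57 and 0.59. Dab2, Siglec1 and Nrp1 are also in the list of 26 other genes used for these macrophages. On residuals from the group means, 2 of these 10 were again among the nearest 10 and 7 among the nearest 100.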

How the data were processed

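RNA of CD11b+ cells was measured by RNA-seq. Reads were trimmed (Trimmomatic), aligned to mm10 (STAR) and counted per gene with HTSeq-count 0.11.1 by the authors. The authors deposited RPKM values plus a constant of 2, which was subtracted here, and values below it (12.6%, 12.6% and 14.0% of values in rows with signal) were set to 0; the normalization is not given in the sources used here. The unit was read from the values: RPKM times exonic length had nearly the same sum in every sample (0.988 to 1.007 of the value that RPKM implies). The design had left the unit open. Read counts could not be recovered, so no count test was used and depth is unknown.

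Symbols were matched to GENCODE M21 (98.8% of 54513 rows, 21848 protein-coding). Differences of log2(RPKM + 1) were tested with limma 3.58.1 in R 4.3.3 (eBayes with trend; mean of at least 1 RPKM; Benjamini-Hochberg threshold 0.05), with the tumor-bearing groups of a table fitted together and naive with vehicle alone. Fold changes are on this scale unless named as ratios. The differences between replicates span 7 of 8, 9 of 10 and 6 of 6 possible dimensions in the GL261, 28 DPI and U87-MG tables, so replicates in the first 2 are not fully independent and p-values there may be too small. Samples at 21 DPI pooled 2 animals, and those at 28 DPI were single animals. Column names of the U87-MG table gave the group only. Labels naming "Anti-PD-2" and "Anti-PD-3" were read by the sample titles as anti-PD-1 samples 2 and 3.

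The 9 genes, the cell type lists and the motifs were chosen with earlier results of these data known. The rule for named genes was every marker in every comparison, up to 5 genes past the threshold from each other list, and the 10 genes nearest to the markers; here markers not given singly are given by counts, a median or a range, and lists of other cell types are mostly given by counts and sums. Alternatives were other pseudocounts, filters, scaling and gene sets, only the groups compared, naive samples added, 1 residual degree of freedom fewer, a replicate block and leaving out each sample. Same-numbered samples gave little sign of pairing: correlations of their deviations were over 0.1 in 1 of 9 pairs (GL261) and 3 of 19 (28 DPI). Because replicates in these tables are not fully independent, these correlations cannot show that the samples were unpaired. The limma step was tested on simulated data. Python 3.11.15 and matplotlib 3.10.9 were used for the rest.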

Additional observations from a re-analysis of the deposited data

Results flagged for a closer look

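Cbr2 in 7aaRGD 1 at 28 DPI, at 7.85 RPKM, was far from the other 3 samples of its group, with a gap to the nearest of 0.905 of the whole range (above the 95% critical value of Dixon's test). Chance flags about 1 in 20 such groups, and 18 were examined, 9 genes in each group of 4 samples.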

How the results depend on the processing

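With a mean of at least 5 RPKM as the filter, 5 markers were tested between vehicle and naive and 4 were called; leaving out 1 sample left 5 to 7 called. For 7aaRGD against vehicle in GL261, leaving out 1 sample gave 0 to 1 called (Ccl24, without vehicle 3), and for the combination against vehicle 0 to 1 (Pf4, without combination 2). The remaining counts kept to within 1.5 times under the alternatives run. Among single differences, leaving out 1 sample moved Ccl24 between the peptides in GL261 from -0.93 to 0.47. Cbr2 with 7aaRGD in U87-MG moved from -0.70 to 0.67. These were the only changes of sign among the single differences followed in this way, and the cause was not tested. Not every printed difference was followed, so others, such as those given only as the end of a range, may also change sign. With the replicate number as a block, 6 of 8 markers were called between vehicle and naive, since Folr2 lost its call (-0.99, adjusted p = 0.0548, limma), and the block changed no other call. No paired analysis was possible for U87-MG because its columns carry no replicate numbers. With 3 or 4 samples per group and unknown depth, a marker that was not called may still differ, by amounts within its interval. The intervals are before adjustment and are not limits of detection.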
